A study of Mus musculus with 2 samples.

Results

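The genes described are 10 acid-base genes of the intercalated cells of the kidney collecting duct, taken from 20017 genes with a named probe on an Agilent mouse array. They are the anion exchangers Slc4a1, Slc26a4 and Slc4a9, the receptor Insrr, the transcription factors Foxi1 and Hmx2, the proton pump subunits Atp6v1b1, Atp6v0d2 and Atp6v1g3, and the H,K-ATPase subunit Atp4a. A probe was assigned to a gene when its transcript accession belonged to that gene. The genes were listed by name with results of these arrays known, and no signal threshold was applied. The TG+STZ array held RNA of Sirt1-overexpressing transgenic mice and the WT+STZ array RNA of wild type mice. Sirt1 encodes an NAD-dependent protein deacetylase. Mice of both groups were male, on a C57BL/6J strain background, and diabetic after streptozotocin (STZ), a toxin of insulin-producing cells, given in citrate buffer (100 mmol/l) when they were 8 weeks old. They were killed at 32 weeks, and RNA was taken from dissected glomerular regions of the kidney. The promoter that drives the transgene and the number of mice behind each array are not given in the sources used here. No nondiabetic mice were analysed here.

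Intercalated cells set the acid-base balance of the urine in the connecting tubule and collecting duct. Type A cells secrete acid through an apical vacuolar proton pump and return bicarbonate to the blood through Slc4a1 (AE1, band 3). Type B cells secrete bicarbonate through the apical exchanger Slc26a4 (pendrin), and both cell types depend on Foxi1. The glomerulus itself contains no intercalated cells. All 12 probes of the 10 genes were well above background on both arrays, with processed signals between 458 and 20169 intensity units.

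The bases just before the transcription start are shown for 4 of the genes, because the factor Foxi1 binds DNA through a forkhead domain and pump subunit genes are among its known targets. RefSeq windows (GRCm38.p6) were found for 6 of the 10 genes, and each line gives the 250 bases before the start, 5′ to 3′ on the strand of the gene. Capitals mark the forkhead core TGTTTAC and the TATA box motif TATAAA. Both were searched on both strands, and no matches overlapped. The windows are chr12:31559985-31560234 (minus strand) for Slc26a4, chr6:83742767-83743016 (plus) for Atp6v1b1, chr1:138273488-138273737 (plus) for Atp6v1g3 and chr7:30711959-30712208 (plus) for Atp4a.
Slc26a4: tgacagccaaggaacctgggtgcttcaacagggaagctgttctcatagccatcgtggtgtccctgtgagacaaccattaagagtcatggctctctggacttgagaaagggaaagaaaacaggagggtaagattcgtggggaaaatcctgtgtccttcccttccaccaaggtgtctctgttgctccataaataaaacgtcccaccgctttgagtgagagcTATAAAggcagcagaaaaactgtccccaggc
Atp6v1b1: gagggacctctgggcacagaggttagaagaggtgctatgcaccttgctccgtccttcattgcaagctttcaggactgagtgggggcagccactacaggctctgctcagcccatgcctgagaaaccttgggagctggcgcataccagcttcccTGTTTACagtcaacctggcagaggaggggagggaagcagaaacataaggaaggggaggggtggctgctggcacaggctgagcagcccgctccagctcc
Atp6v1g3: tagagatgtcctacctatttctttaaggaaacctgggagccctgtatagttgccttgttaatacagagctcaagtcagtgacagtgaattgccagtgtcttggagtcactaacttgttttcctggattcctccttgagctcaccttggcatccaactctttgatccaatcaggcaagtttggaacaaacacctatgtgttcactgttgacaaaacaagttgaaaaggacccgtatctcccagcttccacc
Atp4a: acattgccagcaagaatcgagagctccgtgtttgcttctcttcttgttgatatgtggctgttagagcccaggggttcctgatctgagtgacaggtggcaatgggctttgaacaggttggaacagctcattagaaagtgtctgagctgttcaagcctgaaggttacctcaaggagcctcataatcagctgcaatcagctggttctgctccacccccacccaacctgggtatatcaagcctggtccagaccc
The forkhead core was found in 1 of the 7 windows of these genes, that of Atp6v1b1, where it began at base -98. Of all 32851 windows of this length, 3.17% hold it on either strand. TATAAA was found at base -31 in Slc26a4 and at base -29 in 1 of the 2 windows of Hmx2, and 12.4% of all windows hold it. The windows of Atp6v1g3, Atp4a and Foxi1 held neither, which says only that these letters are not in those bases. GC content was 49.6% in the Slc26a4 window, 59.6% in Atp6v1b1, 44.4% in Atp6v1g3 and 51.2% in Atp4a, beside a median of 52.4% over all windows. These matches are descriptions of sequence, and binding was not measured.

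Each group had 1 array, so the differences below have no replicate check and no test between groups. A difference is TG+STZ minus WT+STZ in log2 signal, after each array's 75th percentile over gene spots was subtracted. Its error is the scanner software's error of the spots on both arrays combined, which does not include differences between mice. Signals in units, and sums of them, are given before this scaling. The 75th percentile was 2042 units on the TG+STZ array and 1933 on the WT+STZ array, so unscaled signals run slightly higher on the TG+STZ array. Of the 20017 genes, 15975 were measured on both arrays. The median of their differences was 0.00 and the SD 0.26, and 95% lay between -0.52 and 0.49. Well above background were 76.26% of gene spots on the TG+STZ array and 75.04% on the WT+STZ array. The probe for Sirt1 had 2977 units on the TG+STZ array and 2625 on the WT+STZ array, a difference of 0.10 ± 0.20, which lay within its scanner error. The direction of every difference rests on the genotype labels.

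Slc26a4, Insrr and Slc4a9, the genes listed here as type B among the 10, stood lower on the TG+STZ array by similar amounts. Slc26a4, the apical chloride-bicarbonate exchanger of type B cells, had 13718 units on the TG+STZ array, against 20169 on the WT+STZ array. Its difference was -0.63 ± 0.20, or 1.55-fold lower, and 1.55% of measured genes stood as low or lower. Insrr, the insulin receptor-related receptor, is activated by alkaline fluid. It had 6020 units on the TG+STZ array and 8825 on the WT+STZ array, a difference of -0.63 ± 0.20. Slc4a9 (AE4), a basolateral transporter of type B cells, was read by 2 probes. One had 1121 units on the TG+STZ array and 1511 on the WT+STZ array, and the other had 2402 units on the TG+STZ array and 3448 on the WT+STZ array. Both probes stood lower, at -0.51 and -0.60, and their mean was -0.56 ± 0.14, or 1.47-fold lower. The mean of the 3 genes was -0.61 ± 0.11, and the largest gap among them was 0.08. This error combines the 3 scanner errors as if independent, though all 3 genes were read in the same RNA. The 3 genes were listed with their lower signals known, so their likeness lends no support. Oxgr1 and Slc4a8, also listed as type B, are not in this mean and stood at 0.11 and 0.12. All lie among the genes brighter than the median gene, whose differences had an SD of 0.19.

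Slc4a1, the basolateral chloride-bicarbonate exchanger of type A cells, stood the other way. It had 4691 units on the TG+STZ array and 3800 on the WT+STZ array, a difference of 0.22 ± 0.20, just past its scanner error. Of all measured genes, 8.79% stood as high or higher. Within the arrays, where scaling cancels, Slc4a1 stood 0.83 ± 0.23 above the mean of the 3 type B genes, a 1.78-fold gap. The gap was 0.86 ± 0.29 to Slc26a4, 0.86 ± 0.29 to Insrr and 0.78 ± 0.25 to Slc4a9.

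**Figure D1:**
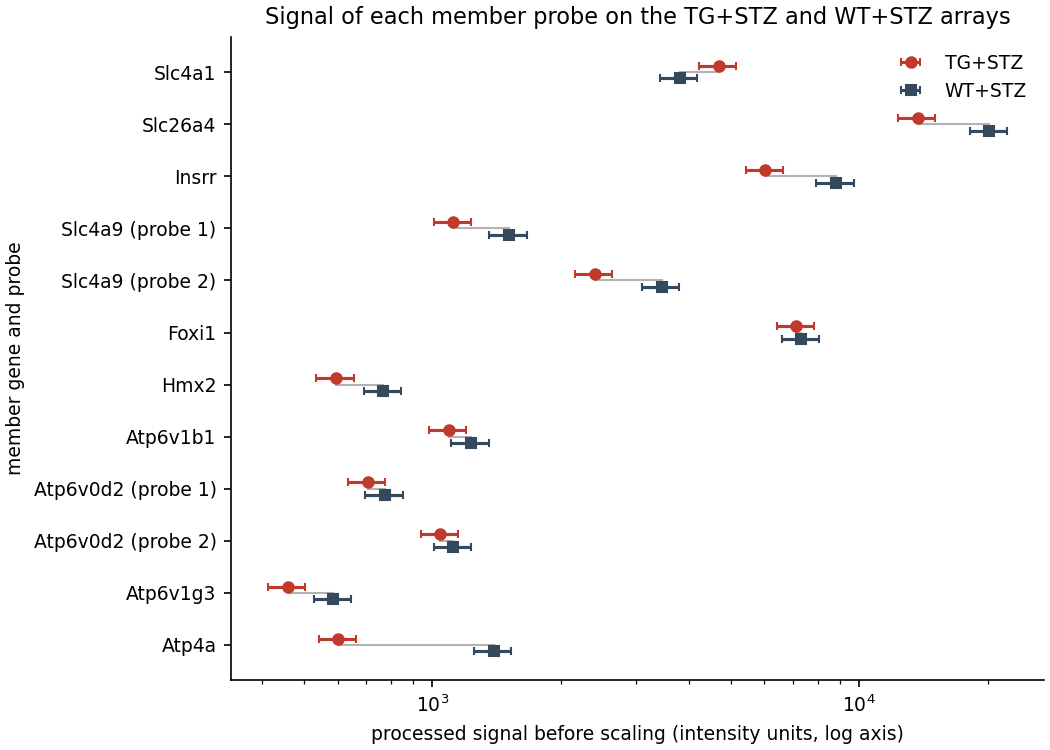
Processed signal of each probe of the 10 genes (log axis, intensity units before scaling) on the TG+STZ array (red circles) and the WT+STZ array (dark squares), with bars for the scanner software's error. Slc4a1 is the gene with the higher signal on the TG+STZ array, and Atp4a has the widest gap, with 603 units on the TG+STZ array and 1393 on the WT+STZ array.

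Slc4a1 is also a major protein of red cells, so red cell markers were read beside it. Of 16 listed markers, 10 were measured. Of these, 8 stood lower, the median was -0.19 and the range -0.29 to 0.26. Their summed signal was 348538 units on the TG+STZ array and 375842 on the WT+STZ array. Alas2, the first enzyme of heme synthesis in red cell precursors, had 1199 units on the TG+STZ array and 1392 on the WT+STZ array, a difference of -0.29 ± 0.20. The globin gene Hba-a1 stood at -0.22 ± 0.20, uncertain because Hba genes are near-identical copies. Klf1, an erythroid transcription factor, stood at 0.26 ± 0.21. Slc4a1 stood 0.52 ± 0.29 above Alas2 and 0.44 ± 0.29 above Hba-a1. The red cell genes Rhag and Rhd were not well above background on either array. The part of red cells in the Slc4a1 signal was not tested.

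The wider type A and type B lists did not split cleanly. Of 5 type A genes, 4 stood higher and 1 lower, with a median of 0.12. Of 5 type B genes, 3 stood lower and 2 higher, with a median of -0.56. Summed over the type A list the signal before scaling was 12102 units on the TG+STZ array and 10886 on the WT+STZ array. Over the type B list it was 24236 on the TG+STZ array and 33878 on the WT+STZ array.

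Among the other type A genes, Slc26a7, a chloride-bicarbonate exchanger, had 65.8 units on the TG+STZ array and 49.8 on the WT+STZ array, a difference of 0.32 ± 0.22. After normexp background correction the difference was 0.04, and the median of the type A list was 0.05. Aqp6, a water channel of intracellular vesicles, stood at 0.12 ± 0.15, with its 2 probes at 0.02 and 0.21. The transcription factor gene Dmrt2 stood at 0.11 ± 0.20. Aqp6 and Dmrt2 thus lay within their scanner errors. Adgrf5, an adhesion receptor that endothelial cells also express, was the exception. It had 2197 units on the TG+STZ array and 2790 on the WT+STZ array, a difference of -0.42 ± 0.20, which was 0.18 ± 0.23 above the mean of Slc26a4, Insrr and Slc4a9.

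Not every type B gene stood low. Oxgr1, the receptor for alpha-ketoglutarate, had 2471 units on the TG+STZ array and 2174 on the WT+STZ array, a difference of 0.11 ± 0.20. Slc4a8 (NDCBE), a sodium-driven chloride-bicarbonate exchanger, had 266 units on the TG+STZ array and 231 on the WT+STZ array, a difference of 0.12 ± 0.20. Both lay within their scanner errors of 0. Oxgr1 stood 0.71 ± 0.23 above the mean of Slc26a4, Insrr and Slc4a9, and Slc4a8 stood 0.73 ± 0.23 above it. The gap between Slc4a1 and that mean was therefore not shared by all genes of each list.

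**Figure D2:**
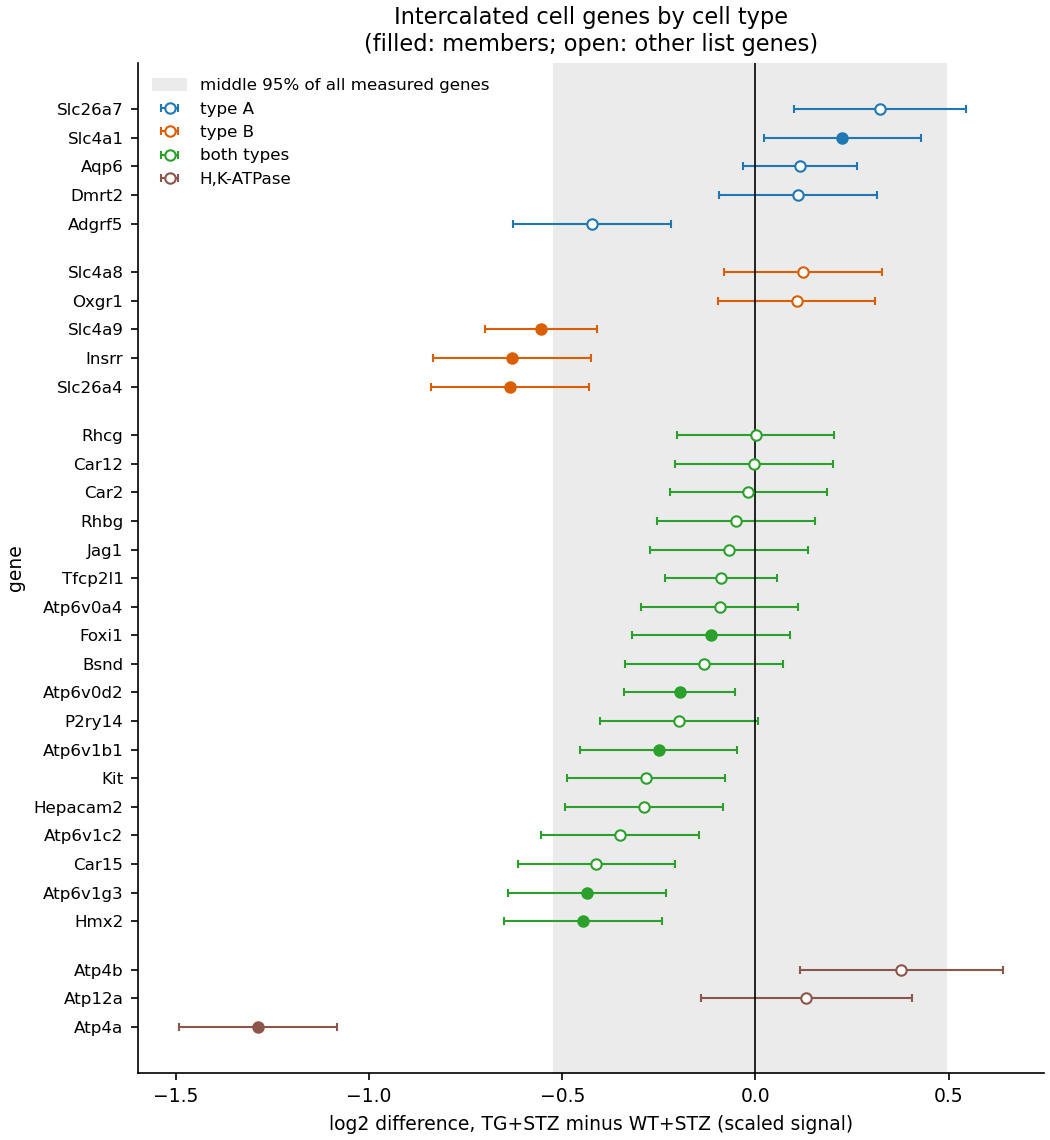
Difference of the intercalated cell and H,K-ATPase genes reported here (x axis, log2, TG+STZ minus WT+STZ), grouped by cell type, with bars for the scanner error, filled points for the 10 genes, open points for the other list genes and a grey band for the middle 95% of all measured genes. Slc26a4, Insrr, Slc4a9 and Atp4a lie to the left of the band, while Oxgr1 and Slc4a8 lie at 0.11 and 0.12.

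Foxi1, the forkhead transcription factor on which intercalated cells depend, lay within its scanner error of 0. It had 7133 units on the TG+STZ array and 7315 on the WT+STZ array, a difference of -0.12 ± 0.20, and 23.1% of genes stood as low or lower. It stood 0.49 ± 0.23 above the mean of Slc26a4, Insrr and Slc4a9. Hmx2, a homeobox transcription factor gene, had 594 units on the TG+STZ array and 767 on the WT+STZ array, a difference of -0.45 ± 0.20. Of all measured genes, 3.41% stood as low as Hmx2.

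The kidney-type subunits of the vacuolar proton pump stood slightly lower. Atp6v1b1, the B1 subunit of the catalytic sector, had 1093 units on the TG+STZ array and 1231 on the WT+STZ array, a difference of -0.25 ± 0.20. Atp6v0d2, a subunit of the membrane sector, was read by 2 probes. One had 706 units on the TG+STZ array and 774 on the WT+STZ array, and the other had 1043 units on the TG+STZ array and 1119 on the WT+STZ array. Their differences were -0.21 and -0.18, with a mean of -0.20 ± 0.14. Atp6v1g3, the G3 subunit, had 458 units on the TG+STZ array and 587 on the WT+STZ array, a difference of -0.44 ± 0.20. The differences of the 3 genes passed the scanner error, and none reached 1.5-fold. For Atp6v0d2 this holds for the mean of its probes, while the probe at -0.18 ± 0.20 lay within its own error.

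With Atp6v1c2 at -0.35 ± 0.20 and Atp6v0a4 at -0.09 ± 0.20, all 5 intercalated cell pump subunits stood below 0, with a median of -0.25. The 18 widely expressed subunits, which acidify lysosomes and other vesicles in most cells, had a median of 0.01, with 8 lower and 10 higher. The furthest of these were Atp6v1a at 0.18 ± 0.14, Atp6v1g1 at 0.15 ± 0.20, Tcirg1 at -0.13 ± 0.20 and Atp6v1h at 0.12 ± 0.20. Set against its kidney-type partner, the widely expressed subunit stood 0.58 ± 0.29 higher for the G subunits (Atp6v1g1 against Atp6v1g3) and 0.45 ± 0.29 higher for the C subunits (Atp6v1c1 against Atp6v1c2). For the B subunits (0.23 ± 0.29), the d subunits (0.16 ± 0.25) and the a subunits (Atp6v0a1 against Atp6v0a4, 0.14 ± 0.29) the gap lay within its error.

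Atp4a, the catalytic subunit of the gastric H,K-ATPase, which exchanges protons for potassium, stood furthest from 0. It had 603 units on the TG+STZ array and 1393 on the WT+STZ array, a difference of -1.29 ± 0.20, or 2.44-fold lower. Of all measured genes, 0.232% stood as low or lower. It was read by 1 probe. Atp4b, its beta subunit, had 35.4 units on the TG+STZ array and 25.8 on the WT+STZ array, a difference of 0.38 ± 0.26. Atp12a, the non-gastric catalytic subunit, had 32.5 units on the TG+STZ array and 28.1 on the WT+STZ array, a difference of 0.13 ± 0.27. Within the arrays Atp4b stood 1.66 ± 0.33 above Atp4a, and Atp12a 1.42 ± 0.34 above it. Atp4b and Atp12a thus did not stand lower with Atp4a. Both were dim, so their differences and these gaps are uncertain.

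Because Atp4a is best known from the stomach, 8 stomach lining markers were read beside it, Atp4b included. Of these, 5 were measured on both arrays, 2 lower and 3 higher, with a median of 0.03 and a range of -0.61 to 0.52. Their summed signal was 313 units on the TG+STZ array and 285 on the WT+STZ array. The trefoil factor gene Tff1 had 13.7 units on the TG+STZ array and 19.7 on the WT+STZ array, a difference of -0.61 ± 0.25. The gastrokine gene Gkn1 stood at 0.52 ± 0.22 and the mucin gene Muc5ac at -0.22 ± 0.21. Cblif (gastric intrinsic factor) had 8.33 units on the TG+STZ array, where it was not well above background, and 18.5 on the WT+STZ array. It was 2.01-fold lower after scaling, with its TG+STZ value set to the lowest signal well above background on that array. Tff2 had 12.20 units on the TG+STZ array, again not well above background, and 16.02 on the WT+STZ array, or 1.39-fold lower after scaling. For Tff2 the dim probe's own signal was higher than that lowest signal and was used. A signal above that lowest one can thus still fail to count as well above background. The Cblif and Tff2 values are therefore ratios of dim signals and not bounds. The part of stomach-type cells in the Atp4a signal was not tested.

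Counted over the 10 genes, 9 stood below 0, beside 49.1% of all measured genes. Lower by more than the scanner error were 8, beside 13.3%, and higher by more than it was 1, beside 10.4%. At least 1.5-fold lower were 3 (Slc26a4, Insrr and Atp4a), beside 1.91%, and none was at least 1.5-fold higher, beside 1.75%. At least 2-fold lower was Atp4a, beside 0.469%. Of the 8 that were brighter than the median gene, 3 were at least 1.5-fold lower, beside 0.701% of the genes of that brightness. The 1.5-fold line lies at 0.58 on the log2 scale, with Insrr just past it at -0.63 and Slc4a9 just short of it at -0.56. The median of the 10 genes was -0.44. Since the genes were listed with these results known, the counts describe them and lend them no support.

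**Figure D3:**
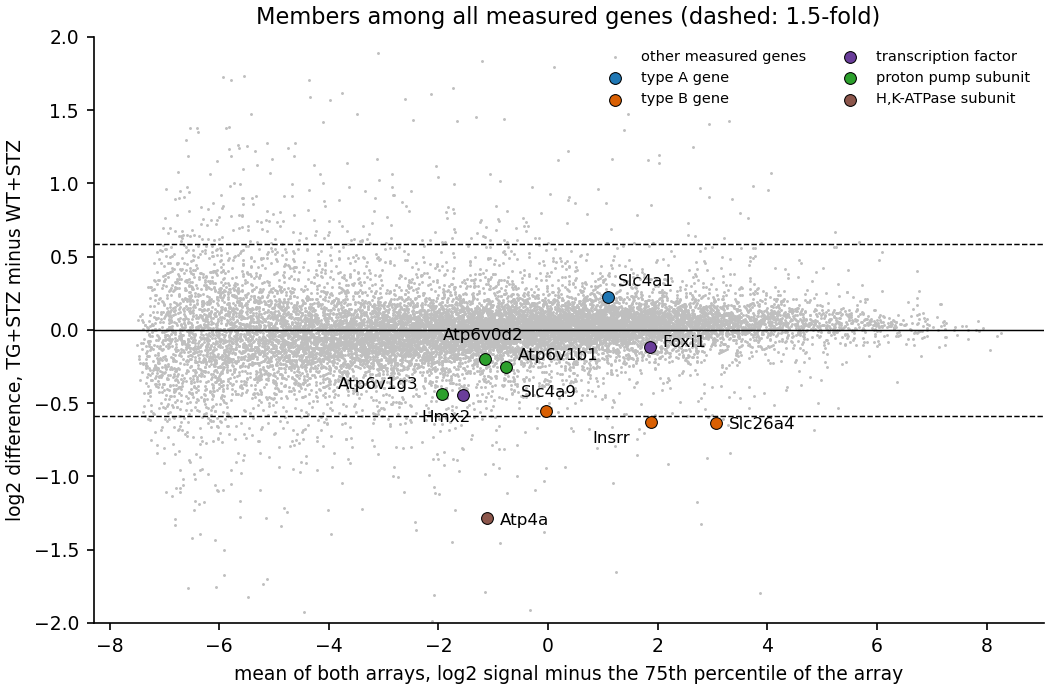
Difference of all measured genes (y axis, log2, TG+STZ minus WT+STZ) by mean level on both arrays (x axis, log2 signal minus the 75th percentile), with the 10 genes in colour and dashed lines at 1.5-fold. Beyond the y axis lie 24 genes. Slc26a4 and Insrr lie below the lower dashed line at the bright side of the plot, where the other genes spread less.

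The 19 genes listed here under both cell types, which include the pump subunits, Foxi1 and Hmx2, had a median of -0.19, and 18 stood below 0. Lower by more than the scanner error were 8. Beside Hmx2 and the pump subunit genes Atp6v1b1, Atp6v0d2, Atp6v1g3 and Atp6v1c2, these were the carbonic anhydrase gene Car15 at -0.41 ± 0.20, Hepacam2 at -0.29 ± 0.20 and the receptor tyrosine kinase gene Kit at -0.28 ± 0.20. Within their scanner errors lay the UDP-glucose receptor gene P2ry14 at -0.20 ± 0.20 and Bsnd, which encodes barttin, at -0.13 ± 0.20. So did the transcription factor gene Tfcp2l1 at -0.09 ± 0.14, the Notch ligand gene Jag1 at -0.07 ± 0.20 and the ammonia transporter gene Rhbg at -0.05 ± 0.20. Car2, Car12 and the ammonia transporter gene Rhcg stood closest to 0, at -0.02, -0.00 and 0.00.

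Genes of related transport showed no common direction. The 12 ammonia and carbonic anhydrase genes had a median of 0.04, with 5 lower and 7 higher. They included the glutamine transporter gene Slc38a3 at 0.43 ± 0.20, Car13 at 0.41 ± 0.21, Car14 at -0.41 ± 0.20 and Car15 at -0.41 ± 0.20. Of 17 other bicarbonate and chloride exchangers, 15 were measured, with a median of -0.08, 9 lower and 6 higher. The furthest were Slc9a4 at -0.49 ± 0.25, Slc26a9 at 0.30 ± 0.33, Slc26a11 at 0.28 ± 0.20 and Slc4a5 at -0.20 ± 0.18. Slc26a3 and Slc4a10 were not well above background on either array.

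Most markers of the neighbouring principal cells stood slightly lower too. The 14 principal cell markers had a median of -0.23, with 11 lower and 3 higher. Their summed signal was 85679 units on the TG+STZ array and 87000 on the WT+STZ array. Of the 14, 8 were lower by more than the scanner error, beside 13.3% of all measured genes. By more than that error 2 were higher, beside 10.4%. Aqp2, the vasopressin-regulated water channel, had 12659 units on the TG+STZ array and 16128 on the WT+STZ array, a difference of -0.43 ± 0.20. Slc26a4, Insrr and Slc4a9 averaged 0.61 below 0, and Aqp2 stood 0.18 ± 0.23 above their mean. The potassium channel subunit gene Kcne1 was dim, with 16.5 units on the TG+STZ array and 30.9 on the WT+STZ array, and stood at -0.98 ± 0.29. Hsd11b2, which inactivates glucocorticoids, stood at -0.44 ± 0.20, and the sodium channel subunit gene Scnn1b at -0.37 ± 0.20. The 3 higher markers were Elf5 at 0.37 ± 0.20, Aqp4 at 0.36 ± 0.14 and Fxyd4 at 0.18 ± 0.20. Elf5 and Aqp4 thus passed their scanner errors in the other direction.

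The 9 distal convoluted and connecting tubule markers had a median of -0.15, the 8 loop of Henle markers -0.18, the 10 proximal tubule markers -0.02 and the 9 podocyte markers -0.06. Of the 41 tubule segment markers, 2 were at least 1.5-fold lower and 1, Kcne1, stood below the mean of Slc26a4, Insrr and Slc4a9. In these bulk samples fewer cells of a type and less RNA per cell cannot be told apart. The part of tubule content in the lower signal of the type B genes was not tested.

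**Figure D4:**
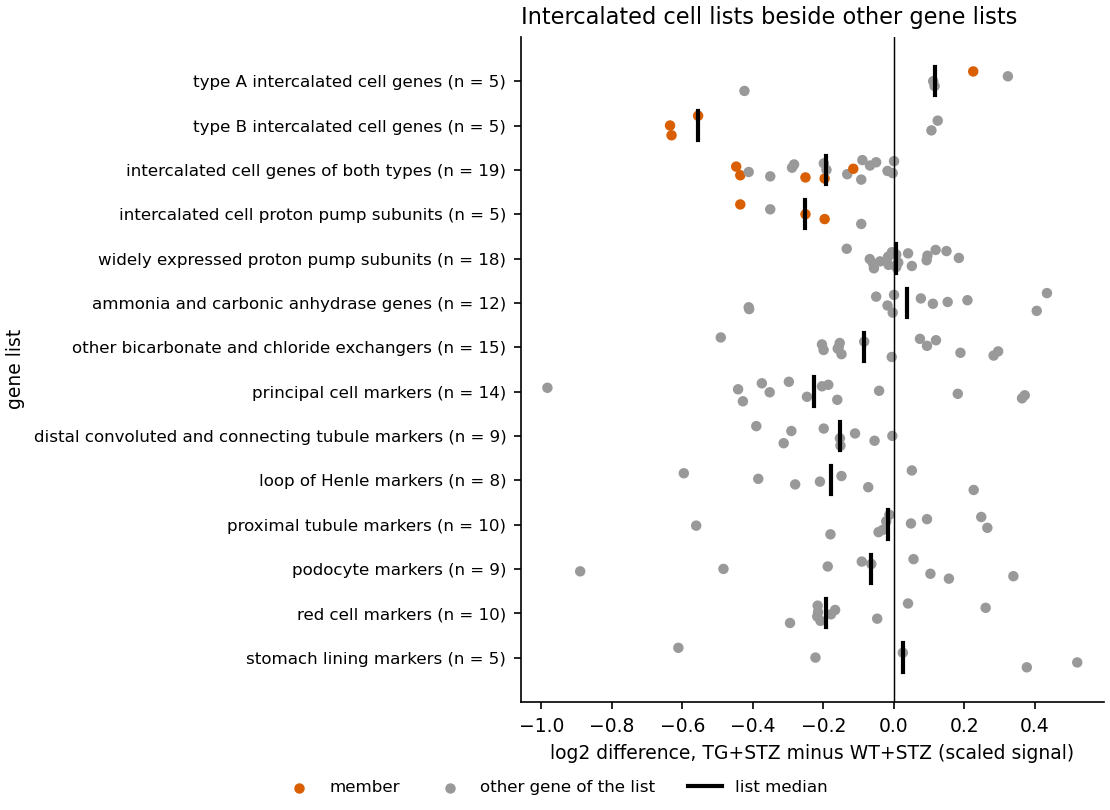
Difference of every measured gene of each list (x axis, log2, TG+STZ minus WT+STZ) by list (y axis), with the 10 genes in orange, other genes in grey and black bars at list medians. The type B list has the lowest median, -0.56, and its points form 2 separate groups.

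Under 10 other ways of processing the same arrays, every one of the 10 genes kept its sign. Not all of these ways could change it. The deposited value table and the looser detection filters gave the main values, since every probe of these genes passed the main filter. Scaling by the median, by detected probes or by spike-ins moved all genes by the same amount. Slc26a4 ranged between -0.68 and -0.61, Insrr between -0.66 and -0.61, Slc4a9 between -0.60 and -0.50 and Slc4a1 between 0.20 and 0.25. Atp4a ranged between -1.31 and -1.26. With the brightest probe alone, Slc4a9 passed the 1.5-fold line.

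**Figure D5:**
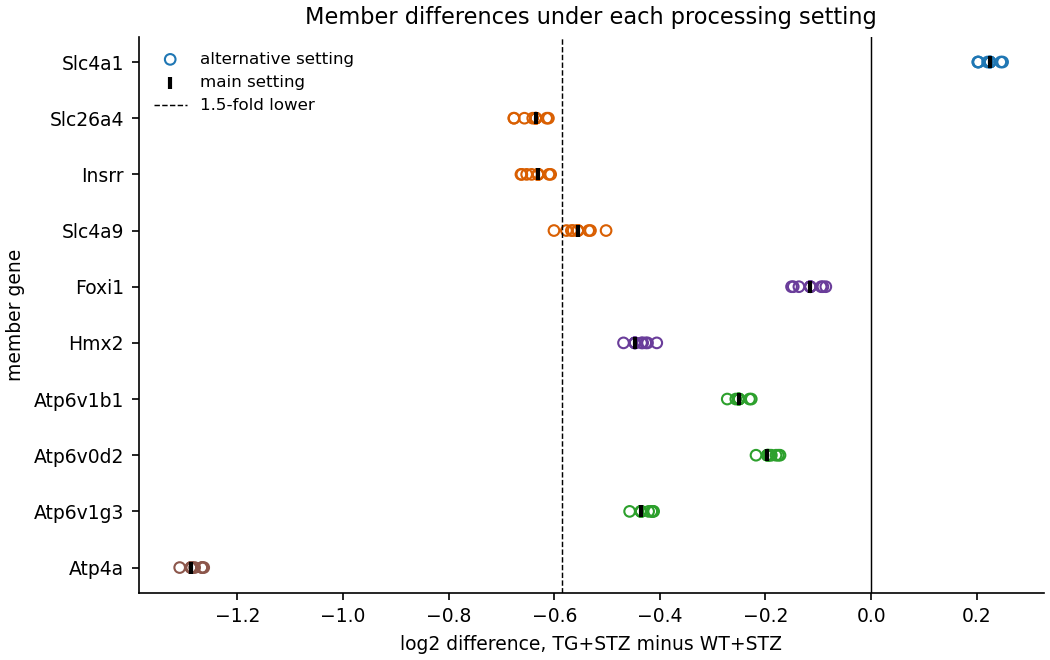
Difference of each of the 10 genes (x axis, log2, TG+STZ minus WT+STZ) under the main processing (black ticks) and each alternative (open circles), with a dashed line at 1.5-fold lower. Every gene stays on its side of 0, and Slc4a9 is the gene with a value on each side of the dashed line.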

How the data were processed

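RNA of dissected glomerular regions was labelled with Cy3 and hybridised to 1 Agilent array per group, on 1 slide in 1 scan. The deposited scanner tables hold each spot's processed signal, a linear intensity. The authors made it with Agilent Feature Extraction, version 10.7.1.1 per the file headers (10.3.1.1 in the submitters' processing notes). The deposited value table held the same intensity at 44397 of 44397 spots.

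From the deposited intensity, log2 was taken and each array's 75th percentile over gene spots subtracted. Control and outlier spots were left out. Probes were named through RefSeq accessions (26412 of 39429 matched a symbol), had to be well above background and unsaturated on both arrays, and were averaged per gene. Each probe of the 10 genes was spotted once. The array tables name no genome build, so probes were not placed on the genome; promoter windows and the order of neighbouring genes come from RefSeq tables of GRCm38.p6.

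The members and lists were chosen with earlier results of these data known. The lower signals of Slc26a4, Insrr, Slc4a9 and Atp4a had been seen before. Named are all members, all genes of the intercalated cell lists and the 4 furthest genes of other lists. The principal cell markers that stood higher are named too. For the distal tubule, loop, proximal tubule and podocyte lists only medians are given. Some genes that the rule takes are counted but not reported by name. The steps were tested on simulated data. Alternatives covered background correction (normexp, offset 50), scaling, detection filters, the choice of probe and the fold threshold. Normexp was run with limma 3.58.1 in R 4.3.3, and all other steps with pandas 2.3.3, numpy 2.4.6 and statsmodels 0.14.6 in Python 3.11.15.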

Additional observations from a re-analysis of the deposited data

How the results depend on the processing

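With a 2-fold threshold, 1 of the 10 genes was lower (Atp4a), against 3 at 1.5-fold. All other values kept their direction: 164 values over the alternatives stayed on their side. Some of them could not do otherwise, because the deposited value table and the looser detection filters left the values of the 10 genes unchanged. The type A list median ran between 0.05 (normexp) and 0.21 (brightest probe), the type B list median between -0.63 (without Slc4a8 and Oxgr1) and -0.50 (normexp), and the gap between Slc4a1 and the mean of Slc26a4, Insrr and Slc4a9 between 0.82 and 0.85. That gap was chosen after seeing the data, as was leaving out Atp4a, which put the median of the remaining genes at -0.44. Slc26a7, a dim gene, ran between 0.04 and 0.37. Over all genes, 305 were at least 1.5-fold lower and 280 higher, against 149 and 109 after normexp, 849 and 741 without a filter on dim probes, and 671 and 578 with a laxer detection flag. No alternative replaces a second array: the spread between mice is unknown for every value.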

Other observations

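The genes next to the 10 acid-base genes were read as well, a choice made after seeing the data. The 2 nearest measured genes on each side gave 40 neighbours, with a median of -0.01 and 21 below 0. At least 1.5-fold lower were 5 and at least 1.5-fold higher were 2, namely Ttpa at 0.74 ± 0.15 and Lhx9 at 0.65 ± 0.32. Hmx3, a homeobox gene next to Hmx2, had 36.9 units on the TG+STZ array and 84.8 on the WT+STZ array, a difference of -1.28 ± 0.23. Kcnmb1, next to Foxi1, stood at -0.71 ± 0.24. Near Atp4a, Gapdhs stood at -0.77 ± 0.28 and the gene listed as 2200002J24Rik at -0.84 ± 0.25.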
